A study of Mus musculus with 33 samples.

Results

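The immunoglobulin genes of the mouse are described here across all 33 libraries of the series: the constant region genes that give an antibody its isotype and light chain, and the V genes that each B cell joins to them. Genes annotated as immunoglobulin V or C genes with symbols starting Igh, Igk or Igl were chosen by their read counts and kept when they had at least 10 reads in at least 3 libraries. The rule kept 100 of 229 such genes, out of 31054 features in the count files. The 100 genes were 6 of 8 heavy chain constant genes, 22 of 113 heavy chain V genes, the single kappa constant gene, 65 of 100 kappa V genes, 3 of 4 lambda constant genes and all 3 lambda V genes. Because the rule used read counts, it favoured genes that were high in at least 1 group: 91 genes reached 10 reads in at least 3 of the 6 libraries of CD45+CD4- cells, 83 met the rule only with the help of those libraries, and 17 met it on the 27 libraries of CD4+ cells alone. Of the 100 genes, 44 had 10 reads in no library of CD4+ cells. The 21 genes just inside the threshold, with exactly 3 such libraries, had 41 to 754 reads in all libraries together, and the 34 genes just outside it, with 2, had 27 to 90.

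The libraries formed 11 groups of 3. All mice were DEREG mice on the C57BL/6 background, in which a transgene under the Foxp3 promoter gives EGFP and the diphtheria toxin receptor, so that Foxp3+ cells were sorted by EGFP, and the ages of the mice were not given. Tolerant mice carried porcine neonatal islet cell clusters (NICC) under the renal capsule and had received MR-1, an antibody to CD40L, with CTLA4-Fc, and their cells were taken on day 100. Naive mice had neither a transplant nor treatment. From the spleen (SP) came CD45+CD4- cells and CD4+Foxp3- T cells of naive and of tolerant mice, CD4+Foxp3+ regulatory T cells (Tregs) of naive mice (SP/naive), and Tregs of tolerant mice split by the IL-7 receptor alpha chain into SP/CD127-/lo and SP/CD127hi. The remaining groups were Tregs from the graft and, from the lymph node draining the kidney (DLN), DLN/CD127hi, DLN/CD127-/lo and, of naive mice, DLN/naive. The CD45+CD4- cells were what remained of the spleen after removal of CD4+ cells and hold B cells among others, whereas the Treg gate used CD4, EGFP and CD127 with no B cell marker. Tolerant mice were male and came from more than 1 transplant experiment, naive spleens came from male mice, and naive lymph nodes came from female mice. Each library was a pool of mice. The naive mice used for an organ were too few for separate pools, so replicate libraries of naive mice may share animals, and the p-values measure the spread between libraries, which may be technical.

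An antibody is a pair of heavy and light chains, and each chain has a variable region built by joining a V gene to D and J segments, or to a J segment alone in light chains, upstream of a constant gene. Naive B cells splice one heavy chain V region to Ighm or to Ighd, giving IgM and IgD, and activated B cells can switch to the Ighg, Igha or Ighe genes. A given B cell uses 1 light chain, kappa or lambda, so V gene counts in a mixed B cell population are spread over many genes and a clone shows few.

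The V genes on which the descriptions of single libraries turn are shown by the end of their germline sequence, which a reader can compare from gene to gene. Lower case letters end with the codon of the conserved cysteine, and capitals mark the germline bases after it, where the third complementarity determining region starts. All were read from GENCODE vM21 transcripts (GRCm38). They are reference sequences and not the rearranged reads of these cells. Igkv8-30 (chr6:70117061-70117620, minus strand) and Igkv6-32 (chr6:70074024-70074603, minus strand) led the kappa V counts of one DLN/CD127hi library. Igkv4-91 (chr6:68768555-68769103, minus strand) and Igkv1-110 (chr6:68270485-68271267, plus strand) led a graft library each. Igkv6-15 (chr6:70406469-70406992, minus strand) led an SP/CD127hi library and a library of naive CD45+CD4- cells, and Igkv12-46 (chr6:69764523-69765022, minus strand) had the highest mean of all kappa V genes in CD45+CD4- cells. The 3 lambda V genes are Iglv1 (chr16:19085017-19085500), Iglv2 (chr16:19260401-19260859) and Iglv3 (chr16:19241207-19241690), all on the minus strand.
Igkv8-30: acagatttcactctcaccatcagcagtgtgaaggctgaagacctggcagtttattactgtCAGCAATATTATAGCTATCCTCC
Igkv6-32: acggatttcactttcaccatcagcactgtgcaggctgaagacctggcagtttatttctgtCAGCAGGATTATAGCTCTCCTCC
Igkv4-91: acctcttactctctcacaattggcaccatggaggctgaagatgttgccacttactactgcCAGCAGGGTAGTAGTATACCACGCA
Igkv1-110: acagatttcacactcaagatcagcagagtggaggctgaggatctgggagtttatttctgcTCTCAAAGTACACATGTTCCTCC
Igkv6-15: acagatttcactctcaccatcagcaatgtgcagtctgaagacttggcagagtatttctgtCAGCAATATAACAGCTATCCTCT
Igkv12-46: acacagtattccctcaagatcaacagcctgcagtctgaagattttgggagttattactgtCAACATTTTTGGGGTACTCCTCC
Iglv1: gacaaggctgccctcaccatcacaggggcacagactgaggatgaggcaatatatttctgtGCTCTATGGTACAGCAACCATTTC
Iglv2: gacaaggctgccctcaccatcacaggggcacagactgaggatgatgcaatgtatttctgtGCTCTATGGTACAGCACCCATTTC
Iglv3: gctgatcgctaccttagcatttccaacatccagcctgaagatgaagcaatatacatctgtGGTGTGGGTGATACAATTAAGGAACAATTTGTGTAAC

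The spleen and graft libraries held 2550698 to 4615283 reads on genes and the DLN libraries, run on another sequencer, 844039 to 1935323. Levels are given as TMM-scaled counts per unit of depth (CPM). A gene with no reads could have had up to 3, counting error only. Before TMM scaling this is 0.650 to 1.18 CPM in spleen and graft and 1.55 to 3.55 CPM in DLN. The fold bounds below that count against 3 reads a library use TMM-scaled CPM. Foxp3 lay between 166 and 672 CPM in all 21 Treg libraries and at or under 8.2 CPM in the other 12. Summed over 16 B cell marker genes, CD45+CD4- cells reached 8080 ± 1757 CPM (SD, n = 3) in naive and 11837 ± 1085 in tolerant mice. The same sum was 178 ± 124 in naive and 71.4 ± 9.78 in tolerant CD4+Foxp3- T cells. Group means in Tregs were 79.8 to 115 CPM in spleen and graft, 133 in DLN/naive, 343 in DLN/CD127-/lo and 919 in DLN/CD127hi. In bulk libraries, fewer cells of a type and less RNA per cell cannot be told apart, and this holds for every level below.

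Immunoglobulin reads formed 1.36%, 1.38% and 1.81% of gene reads in the 3 libraries of naive CD45+CD4- cells and 2.05%, 2.48% and 2.72% in those of tolerant mice. CD4+ libraries lay lower, with 0.0432% to 0.0731% in CD4+Foxp3- T cells and 0.0592% to 0.168% in Tregs of spleen and graft. DLN Tregs held 0.0630%, 0.0977% and 0.109% in DLN/naive and 0.137%, 0.212% and 0.0775% in DLN/CD127-/lo. The 3 DLN/CD127hi libraries held 1.3%, 0.474% and 0.234%, each above every other Treg library.

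In CD45+CD4- cells the kappa constant gene and the mu and delta heavy chain genes had the highest group means of the 100, although Iglc2 had more reads than Ighm or Ighd in naive replicate 3. Ighm (GRCm38 chr12:113418558-113422730, minus strand), which encodes the heavy chain of IgM, reached 2478, 2942 and 1989 CPM in naive mice and 4289, 4089 and 5663 in tolerant mice. Ighd (chr12:113406604-113416324, minus strand), the IgD heavy chain gene just downstream, reached 2857, 2688 and 2029.5 CPM in naive and 3369, 3543 and 3562 in tolerant mice. Igkc (chr6:70726435-70726966, plus strand), the kappa constant gene, reached 2576, 2983 and 5885 CPM in naive and 4295, 6609 and 7559.8 in tolerant mice. For Ighm and Ighd all 3 tolerant libraries lay above all 3 naive ones, while for Igkc the ranges overlapped.

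The switched isotypes had few reads. Ighg2b (chr12:113302965-113307933, minus strand), an IgG heavy chain gene, had 31.2, 73.0 and 5.15 CPM in naive and 68.5, 49.2 and 30.9 in tolerant CD45+CD4- cells. Ighg2c, which C57BL/6 mice carry in place of Ighg2a, had 0.611, 7.5 and 3.86 CPM in naive and 8.29, 52.2 and 166.3 in tolerant ones. All 3 tolerant libraries lay above the naive ones, but the difference did not pass (4.23 ± 1.90 on the log2 scale, adjusted p = 0.97 in edgeR's quasi-likelihood test), and libraries of the same group differed widely. Igha, the IgA gene, stayed between 0 and 17.9 CPM in CD45+CD4- cells, and its highest library was DLN/CD127-/lo replicate 3, at 21.3 CPM. Ighg1 and Ighe, the IgG1 and IgE genes, did not meet the rule: Ighg1 had 74 reads in 1 library of naive CD45+CD4- cells and at most 7 elsewhere, and Ighe at most 9 anywhere. Iglc4, the lambda constant gene left out, had 37 reads in all libraries together.

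As a share of heavy chain constant reads, Ighm made up 48.8% ± 2.59 (SD, n = 3) and Ighd 49.99% ± 3.16 in naive CD45+CD4- cells, against 55.9% ± 3.73 and 42.2% ± 4.05 in tolerant ones. Of light chain constant reads, Igkc took 53.4% ± 3.85 in naive and 55.1% ± 5.08 in tolerant mice, the rest being lambda. The kappa shares of the 2 groups differed by less than 1 SD, and no test was run on shares. Shares of reads are not shares of molecules, since the genes differ in exon length, and the nearly identical lambda constant genes may share reads that the counting could not place. Iglc2 (chr16:19198396-19200351, minus strand), 1 of these genes, had 1212, 1077 and 2494 CPM in naive and 2035, 2439 and 2551 in tolerant CD45+CD4- cells. Iglc3 had 901 to 1841 CPM in naive and 1790 to 2189 in tolerant cells, and Iglc1 316 to 572 and 549 to 682.

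**Figure D1:**
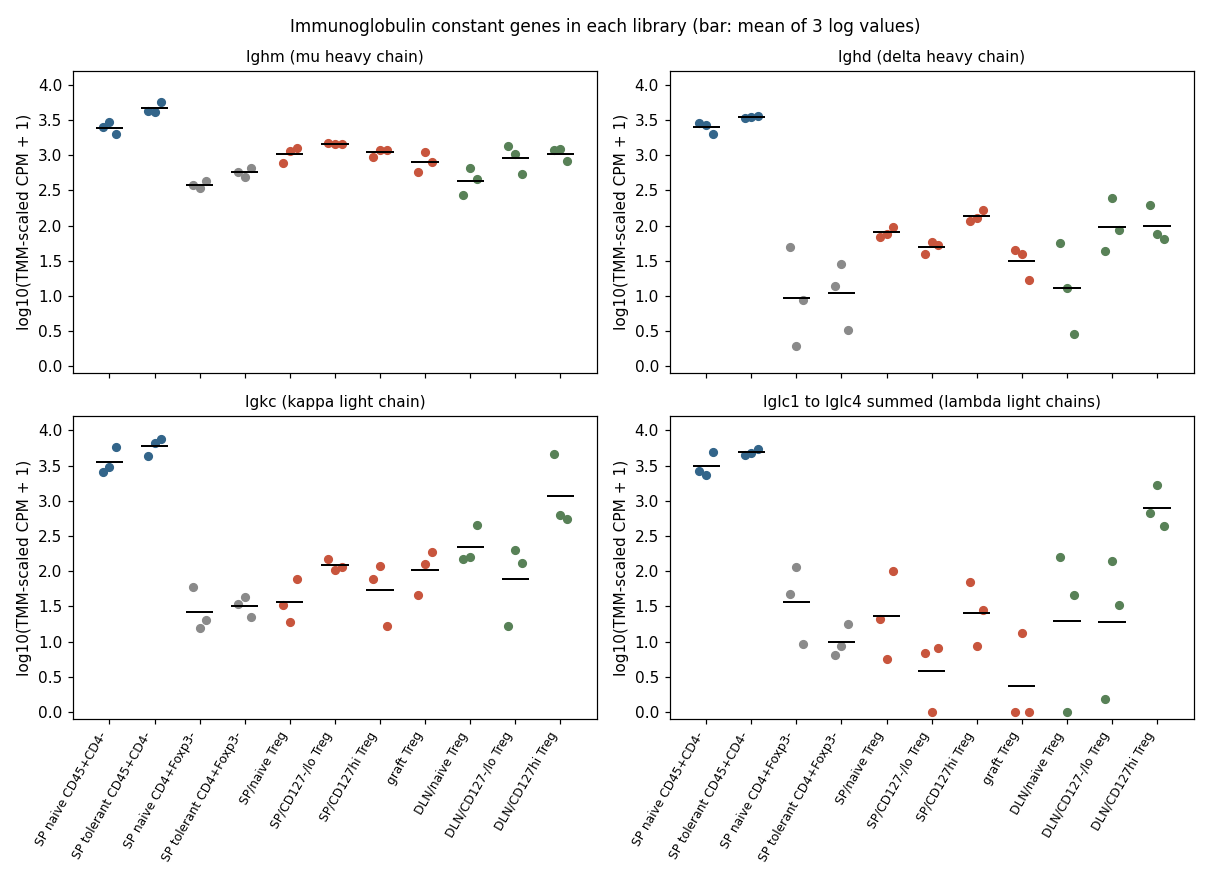
Level of Ighm, Ighd, Igkc and the lambda constant genes summed, as log10 of TMM-scaled CPM plus 1, in each of the 33 libraries. Each point is a library, each bar the mean of the 3 log values of a group, and colours mark CD45+CD4- cells, CD4+Foxp3- T cells, Tregs of spleen and graft, and DLN Tregs. Ighm stayed at or above 270.5 CPM in every library. Igkc and the lambda genes had lower means in CD4+ groups than in CD45+CD4- cells, with DLN/CD127hi the highest CD4+ group. In 1 DLN/CD127hi library Igkc lay within the range of CD45+CD4- cells.

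The question of how much immunoglobulin RNA sorted T cells carried was answered differently by each gene. Ighm remained high in every CD4+ library. It reached 382, 344 and 423 CPM in naive and 569.9, 491 and 654 in tolerant CD4+Foxp3- T cells. Splenic Tregs had 778, 1158 and 1255 CPM in SP/naive, 1499, 1442 and 1429.7 in SP/CD127-/lo, and 939, 1203 and 1183 in SP/CD127hi. Graft Tregs had 571, 1108 and 800.2 CPM. Every splenic Treg library lay above every library of CD4+Foxp3- T cells, and the graft range reached down into theirs.

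Ighd, which naive B cells express with Ighm, did not keep that level. It stood at 48.2, 0.95 and 7.84 CPM in naive and 12.8, 27.7 and 2.32 in tolerant CD4+Foxp3- T cells. It was 67.7, 75.4 and 95.7 CPM in SP/naive, 38.7, 57.9 and 52.8 in SP/CD127-/lo, and 117, 127 and 164 in SP/CD127hi. Graft Tregs had 43.6, 38.4 and 16.1 CPM. The 3 splenic Treg groups did not overlap with one another, SP/CD127hi being the highest and SP/CD127-/lo the lowest. Igkc was low as well, at 14.6 to 59.1 CPM in CD4+Foxp3- T cells, 15.6 to 149.7 in splenic Tregs and 44.4 to 185 in graft Tregs.

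Per kilobase of exon, Ighm stood at 0.0953 to 0.282 of the level of Igkc in CD45+CD4- cells. The same ratio was 1.82 to 8.74 in CD4+Foxp3- T cells, 2.82 to 21.4 in splenic Tregs, 1.22 to 3.62 in graft Tregs, 0.286 to 1.16 in DLN/naive and 1.19 to 23.996 in DLN/CD127-/lo. In DLN/CD127hi it was 0.0725, 0.553 and 0.420, which is below the range of CD45+CD4- cells in 1 library and above it in the other two. CD45+CD4- cells did not overlap with CD4+Foxp3- T cells or with splenic or graft Tregs. Against Ighd per kilobase, Ighm stood at 0.874 to 1.60 in CD45+CD4- cells and at 7.25 to 39.0 in splenic Tregs. Ighm made up 95.3% ± 5.73 (SD, n = 3) of heavy chain constant reads in naive CD4+Foxp3- T cells, 92.9% ± 0.880 in SP/naive, 96.4% ± 0.74 in SP/CD127-/lo, 89.0% ± 1.33 in SP/CD127hi and 95.7% ± 2.46 in graft Tregs.

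Set against the mean of splenic CD45+CD4- cells of the same treatment, Ighm group means were 12.2% to 15.5% in CD4+Foxp3- T cells and 23.7% to 43.1% in splenic Tregs. They were 17.7% in graft Tregs and 18.5% to 22.9% in DLN Tregs. The summed B cell markers stood at 0.603% to 2.90% in all CD4+ groups other than DLN/CD127hi. Over the 9 CD4+ groups Ighd stood at 0.408% to 3.90%, and Igkc at 0.524% to 6.55% without DLN/CD127hi. In DLN/CD127hi the B cell markers stood at 7.76% and Igkc at 31.3%. In the DLN this ratio crosses sequencers, and no CD45+CD4- cells of the DLN were among the samples. In SP/CD127-/lo, where Ighm was at 1429.7 to 1499 CPM, Pax5, Spib, Fcer2a, Fcrla and Blk were at 0 in all 3 libraries, Cd79b was at 27.97, 22.6 and 42.2 CPM and Cd22 at 7.63, 26.9 and 23.2, and the 16 markers together reached 73.2 to 84.1 CPM. The 11 plasma cell genes, of which T cells also express some (Irf4, Prdm1, Xbp1), stood at 8.96% to 22.9% in the CD4+ groups without DLN/CD127hi and at 45.02% there. Among them Jchain ranged from 0 to 33.8 CPM in CD4+ libraries of spleen and graft. What B cell and plasma cell markers contribute to the Ighm level of CD4+ libraries was not tested.

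**Figure D2:**
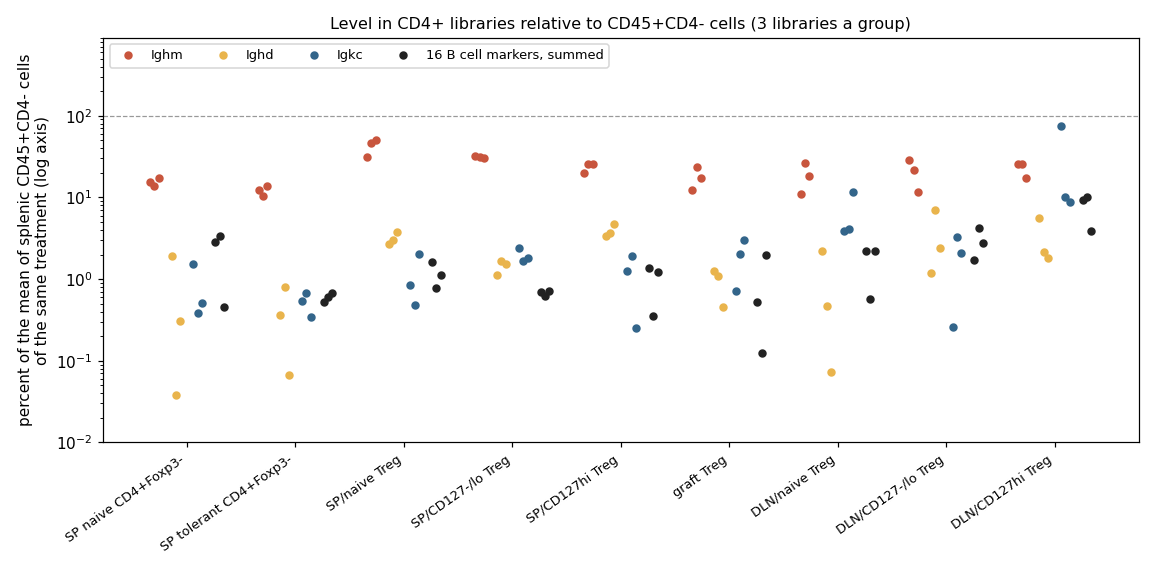
Ighm, Ighd, Igkc and the sum of 16 B cell markers in each library of CD4+ cells, as a percent (log axis) of the mean of splenic CD45+CD4- cells from mice of the same treatment. The dashed line marks 100%, and each point is a library. Ighm lies above the B cell markers in every group, and Igkc comes near the line in 1 DLN/CD127hi library.

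CD4+Foxp3- T cells gave a baseline for Tregs in the spleen, in comparisons added after the data had been seen, and each Treg group was set against T cells of mice with the same treatment. For SP/naive Tregs 5 of the 100 genes passed the adjusted threshold of 0.05 in edgeR's quasi-likelihood test, 4 of them higher, when 0.264% of all genes tested passed it and 0.158% were higher. Ighm was higher by 1.47 ± 0.29 (log2 fold change ± SE, adjusted p = 0.00063), and its call held without each library in turn (1.34 to 1.66) but not in the likelihood ratio test (adjusted p = 0.39). Ighd was higher by 2.06 ± 0.48 (adjusted p = 0.013). The Ighd call was lost without naive CD4+Foxp3- replicate 2 (1.5, adjusted p = 0.17) or replicate 3 (1.69, adjusted p = 0.054) or SP/naive replicate 3 (1.91, adjusted p = 0.064) and in 3 of 6 other settings, and the value rose to 4.19 without naive CD4+Foxp3- replicate 1. Iglc3 was lower by −3.15 ± 0.71 (adjusted p = 0.0096), a call lost without naive CD4+Foxp3- replicate 2 (−1.49, adjusted p = 0.54) or SP/naive replicate 3 (−2.72, adjusted p = 0.15). Iglv1 and Iglv2 were called higher (adjusted p = 0.015 and 0.031) on the reads of SP/naive replicate 3, the only SP/naive library with reads of either gene, at 53.0 and 39.7 CPM. Without it Iglv1 turned to −1.89 (adjusted p = 0.88) and Iglv2 was at 0 in both groups. With each library left out in turn, Iglv1 was called in 4 of 6 fits and Iglv2 in 2 of 6. Iglc3, Iglv1 and Iglv2 were each called in 3 of 6 other settings.

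In tolerant mice, SP/CD127-/lo Tregs had 3 of the 100 genes called against CD4+Foxp3- T cells, 2 of them higher, when 0.284% of all genes passed and 0.17% were higher. Igkc rose by 1.92 ± 0.40 (adjusted p = 0.0018), from 33.5, 42.1 and 21.1 CPM to 149.7, 103 and 113, and Ighm by 1.35 ± 0.29 (adjusted p = 0.0025). For both genes the groups did not overlap and the call held without each library in turn. The likelihood ratio test did not call either (adjusted p = 0.40 and 0.42), nor did DESeq2 call Igkc (0.32). Iglc3 was called lower (adjusted p = 0.032) at 3.11, 0 and 0 CPM against 5.47, 7.72 and 12.9, a call lost without SP/CD127-/lo replicate 2 (−2.44, adjusted p = 0.32) or 3 (−2.48, adjusted p = 0.35) or tolerant CD4+Foxp3- replicate 3 (−2.64, adjusted p = 0.079) and in 3 of 6 other settings.

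SP/CD127hi Tregs had 2 of the 100 genes higher than tolerant CD4+Foxp3- T cells, when 0.324% of all genes passed and 0.193% were higher. Ighd was higher by 3.25 ± 0.50 (adjusted p = 1.4e-06), and this call held in all 6 other settings and without each of the 6 libraries (2.75 to 4.19). Iglc2 was higher by 4.34 ± 0.79 (adjusted p = 0.00016), at 52.2, 0 and 26.9 CPM against 0, 0 and 3.86, so that the groups overlapped at 0. The Iglc2 call held without each library, with 9.25 when tolerant CD4+Foxp3- replicate 3 was left out, and was made in 3 of 6 other settings. Ighm differed by 0.96 ± 0.28 (adjusted p = 0.14), although all 3 SP/CD127hi libraries lay above all 3 T cell libraries. Of 16 B cell markers 2 were called higher and 1 lower in SP/CD127hi than in T cells, 1 higher in SP/CD127-/lo, and 2 lower in SP/naive. The plasma cell gene Jchain, at 0 in tolerant T cells, was called higher in SP/CD127-/lo (adjusted p = 0.0027) and SP/CD127hi (adjusted p = 2e-06). Its reads were 33, 1 and 0 in SP/CD127-/lo and 159, 20 and 0 in SP/CD127hi. Lyz2, a lysozyme gene of macrophages, was called higher in all 3 Treg groups (adjusted p = 2.6e-07 to 0.00010). The part of these markers in the immunoglobulin differences was not tested.

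Among Tregs of the spleen few immunoglobulin genes differed, and most of those that did rested on lambda reads of single libraries. Between SP/CD127hi and SP/naive, Iglc1, a lambda constant gene, was the only gene of the 100 called (5 genes in all, 0.0197% of those tested, and 0.00789% lower). It stood at 0.212, 0 and 0 CPM against 4.41, 0 and 43.7 (−6.99 ± 1.31, adjusted p = 0.0018). Without SP/naive replicate 3 the value was −4.17 and the adjusted p 0.87. Between SP/CD127-/lo and SP/naive, 2 genes were called lower, when 0.071% of all genes passed and 0.0434% were lower. They were Iglc1 (−5.66 ± 1.18, adjusted p = 0.006, and −2.84 with adjusted p = 0.83 without SP/naive replicate 3) and Iglv1, at 0 in SP/CD127-/lo and in 2 SP/naive libraries (at least 21.4-fold lower against 3 reads a library, adjusted p = 0.0039). The Iglv1 call held in 3 of 6 fits with a library left out and in 4 of 6 other settings. Without SP/naive replicate 3 Iglv1 was at 0 in both groups.

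Between SP/CD127hi and SP/CD127-/lo, Iglc2 alone was called, when 0.0907% of all genes passed and 0.0592% were higher. Its 3 SP/CD127hi libraries had 52.2, 0 and 26.9 CPM and the 3 SP/CD127-/lo libraries 1.98, 0 and 7.04 (3.14 ± 0.74, adjusted p = 0.034). The call was lost without SP/CD127hi replicate 1 (2.17, adjusted p = 0.11) or SP/CD127-/lo replicate 1 (2.92, adjusted p = 0.39) or replicate 2 (2.54, adjusted p = 0.33). Igkc did not pass the test between SP/CD127-/lo and SP/naive (1.51 ± 0.39, adjusted p = 0.14) although its libraries did not overlap. B cell markers moved in the direction of the lambda calls in some of these comparisons. Ms4a1, which encodes CD20, and Cr2, a complement receptor of B cells, were called higher in SP/CD127hi than in SP/CD127-/lo (7.56 ± 1.02, adjusted p = 2.6e-08, and 4.00 ± 0.88, adjusted p = 0.013). Ms4a1 stood at 64.1, 0 and 11.0004 CPM in SP/CD127hi and 0, 0.252 and 0 in SP/CD127-/lo, so its groups overlapped at 0 as those of Iglc2 did. Ms4a1 and Bank1, a B cell scaffold gene, were called lower in SP/CD127-/lo than in SP/naive (adjusted p = 0.0078 and 0.020). Of 16 B cell markers 1, Cd79a, was called higher in SP/CD127hi than in SP/naive, against the direction of Iglc1 there. Of 7 T cell markers 2 were called lower in SP/CD127hi than in SP/CD127-/lo and 0 higher. These were Cd3d (−1.36 ± 0.29, adjusted p = 0.0083) and Cd3g (−1.43 ± 0.31, adjusted p = 0.011). The median of the 7 was −0.31, and their sum was 4310 ± 341 against 8219 ± 1900 CPM. Cd5 did not fall, with 1590, 815 and 1540 reads in SP/CD127hi against 754, 1066 and 969. The part of these markers in the lambda calls was not tested. Each of the Iglc1 and Iglc2 calls within splenic Tregs was made in 3 of 6 other settings. The comparisons with SP/naive share the same 3 control libraries.

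Graft Tregs were set against each splenic Treg group, and Iglc2 was called lower in every one. It was at 0 in all 3 graft libraries, against 12.1, 0 and 56.6 CPM in SP/naive, 52.2, 0 and 26.9 in SP/CD127hi and 1.98, 0 and 7.04 in SP/CD127-/lo. Counted against 3 reads a library, it was at least 27.2-fold lower than in SP/naive (adjusted p = 6.9e-09), 31.3-fold lower than in SP/CD127hi (4.6e-09) and 3.56-fold lower than in SP/CD127-/lo (0.0057). Single libraries of all 3 splenic groups were at 0 too, so the groups overlapped. The 3 comparisons share the same 3 graft libraries, which fixes much of their common direction. The first 2 calls held without each library and were lost when only the compared libraries were fitted (adjusted p = 0.51 and 0.48). The third was lost without SP/CD127-/lo replicate 3 (adjusted p = 0.30) and in 3 of 6 other settings.

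Against SP/naive, 3 genes of the 100 were called lower in the graft, when 0.13% of all genes passed and 0.0552% were lower. Besides Iglc2 these were Iglv1 and Iglv2, which had reads in SP/naive replicate 3 only (at least 20.97-fold and 15.7-fold lower, adjusted p = 0.0033 and 0.041). Without that library both were at 0 in both groups. The Iglv1 call was made in 5 of 6 other settings, and the Iglv2 call in 3 of 6 and was also lost without each graft library (adjusted p = 0.12 to 0.15). Against SP/CD127hi, 2 genes were called lower, when 0.103% passed and 0.0631% were lower. Ighd was lower in the graft by −2.06 ± 0.47 (adjusted p = 0.034) with no overlap between the groups. That call was lost without graft replicate 3 (−1.73, adjusted p = 0.15) and in 3 of 6 other settings. Against SP/CD127-/lo, Iglc2 was the 1 gene called, when 0.0829% passed and 0.0276% were lower. Ighm was lower in the graft than in SP/CD127-/lo in every library, but its difference of −0.82 ± 0.28 did not pass (adjusted p = 0.34). The summed B cell markers ranged from 14.5 to 234 CPM in the graft, with Pax5, Spib and Blk at 0 in all 3 libraries. Of the 16 markers 1, Ms4a1, was called lower in the graft than in SP/naive and SP/CD127hi, and 2 were called higher than in SP/CD127-/lo. The plasma cell gene Jchain, at 0 in all 3 graft libraries, was called lower there than in SP/naive (adjusted p = 0.048), SP/CD127hi (1.1e-05) and SP/CD127-/lo (0.015), the same direction as Iglc2. It had 0, 0 and 25 reads in SP/naive, 159, 20 and 0 in SP/CD127hi and 33, 1 and 0 in SP/CD127-/lo, so the groups overlapped at 0. The part of these markers in the Iglc2 calls was not tested.

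Among comparisons within Tregs, the DLN gave the most calls. DLN/CD127hi Tregs had 14 of the 100 genes called against DLN/naive, 13 higher and 1 lower, when 0.951% of all genes passed, 0.548% higher and 0.402% lower. The 13 higher genes were 7 constant genes, 4 kappa V genes and 2 lambda V genes. In 8 of the 100 genes all DLN/CD127hi libraries lay above all DLN/naive ones, against 5.08% of all genes. In this comparison the median of all genes tested was 0.40 on the log2 scale, and 0.60 with RLE size factors, under which 168 of 247 calls in all genes were higher in place of 139 of 241. The DLN libraries of the same groups also differed in B cell markers. Cd79b, the B cell receptor's beta signalling chain, stood at 199, 135 and 119 CPM in DLN/CD127hi and 0, 2.10 and 0 in DLN/naive, and 8 of the 16 B cell markers were called higher with 1 of 11 plasma cell genes. The 7 macrophage markers summed to 600 to 880 CPM in DLN/CD127hi, 2.80 to 429 in DLN/naive and 102 to 746 in DLN/CD127-/lo, so the last range overlapped with the first, and none was called. Of 4 CD8 T and NK cell markers, summing to 2.36 to 192 CPM in DLN/CD127hi, 0 to 70.1 in DLN/naive and 0 to 10.9 in DLN/CD127-/lo, Cd8b1 was called higher against DLN/naive (adjusted p = 7.4e-05) and Cd8a against DLN/CD127-/lo (adjusted p = 0.013). In DLN/CD127hi Cd8b1 had 43, 1 and 115 reads and Cd8a 148, 1 and 1. DLN/naive replicate 3 had 113 reads of Cd8a. What these cells' share contributes to the immunoglobulin differences was not tested. The naive lymph nodes came from female and the tolerant ones from male mice, so in both comparisons with DLN/naive sex cannot be told apart from treatment and the CD127 sort.

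Igkc had 146, 157 and 446 CPM in DLN/naive, 15.8, 201 and 130.0 in DLN/CD127-/lo and 4607, 620.2 and 546 in DLN/CD127hi. Replicate 1 of DLN/CD127hi reached the level of CD45+CD4- cells, and the other two also lay above every other DLN library. DLN/CD127hi exceeded DLN/naive by 2.95 ± 0.41 (adjusted p = 3.4e-08). Without DLN/CD127hi replicate 1 the difference was 1.22 and no longer passed (adjusted p = 0.23). The difference between DLN/CD127hi and DLN/CD127-/lo was 4.06 ± 0.43 (adjusted p = 1.2e-13) and passed without each library in turn, at 2.34 without DLN/CD127hi replicate 1 (adjusted p = 0.0018) and 4.86 without DLN/CD127-/lo replicate 2.

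The lambda constant genes had their highest DLN group means in DLN/CD127hi too. Iglc2 had 116, 0 and 24.2 CPM in DLN/naive, 0, 37.8 and 2.45 in DLN/CD127-/lo and 319, 1266 and 283 in DLN/CD127hi. Here replicate 2 was the highest, and the lowest DLN/CD127hi library lay above both other groups. The differences were 3.73 ± 0.73 against DLN/naive (adjusted p = 0.00039) and 5.59 ± 0.81 against DLN/CD127-/lo (2e-07), and both passed without each library. They were 2.75 without DLN/CD127hi replicate 2, 5.67 without DLN/naive replicate 1 and 9.23 without DLN/CD127-/lo replicate 2, while DESeq2 called neither (adjusted p = 0.29 and 0.13) and the likelihood ratio test did not call the first (0.14). Iglc3 had 189.8, 278 and 150.3 CPM in DLN/CD127hi against 41.2, 0 and 0 in DLN/naive (3.91 ± 0.72, adjusted p = 0.00015), with no overlap, and 12.25 without DLN/naive replicate 1. It was called in 3 of 6 other settings, and lost in DESeq2 (adjusted p = 0.091), the likelihood ratio test (0.060) and the fit of the compared libraries alone (0.30). Iglc1 had 161.6, 117 and 0 CPM against 0, 0 and 20.5 in DLN/naive (3.74 ± 0.99, adjusted p = 0.030), a call made in 3 of 6 other settings and that 3 of 6 libraries ended when left out. The lowest value of these 3 was 3.09 (adjusted p = 0.23), without DLN/CD127hi replicate 1, and those without DLN/naive replicate 1 or 2 had adjusted p = 0.13 and 0.14.

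Ighm and Ighd showed no such step between the Treg sets of tolerant mice. Ighm had 270.5, 648 and 453 CPM in DLN/naive, 1345, 1027 and 548 in DLN/CD127-/lo and 1185, 1215 and 813 in DLN/CD127hi. It was higher than DLN/naive in DLN/CD127hi (1.23 ± 0.29, adjusted p = 0.0071, and 0.96 with adjusted p = 0.16 without DLN/naive replicate 1), and differed by 0.14 between DLN/CD127hi and DLN/CD127-/lo (adjusted p = 0.98). Ighd had 56.1, 11.9 and 1.86 CPM in DLN/naive, 42.0, 245 and 84.2 in DLN/CD127-/lo and 194, 74.9 and 63.2 in DLN/CD127hi. The DLN/CD127hi libraries all lay above the DLN/naive ones (2.25 ± 0.48, adjusted p = 0.0023), although the call was lost without DLN/CD127hi replicate 1 (1.57, adjusted p = 0.21) or DLN/naive replicate 3 (1.70, adjusted p = 0.052), and the value was 4.01 without DLN/naive replicate 1. It was called in 3 of 6 other settings, with adjusted p up to 0.65, and the Ighm difference from DLN/naive in 4 of 6, with adjusted p up to 0.60. The difference of Ighd between DLN/CD127hi and DLN/CD127-/lo was −0.16 (adjusted p = 1).

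Replicate 1 of DLN/CD127hi held most of the switched isotype and of 2 kappa V genes. Ighg2b had 419.5 CPM, or 431 reads, in that library, 4.73 and 0 CPM in the other two, and at most 1.98 CPM in every other CD4+ library. It made up 22.001% of that library's heavy chain constant reads, beside 73.0 CPM of Ighg3 and 34.1 CPM of Ighg2c. Ighg2b was called against DLN/naive (adjusted p = 0.0049) and against DLN/CD127-/lo (0.021), and neither call remained without replicate 1 (adjusted p = 0.69 and 0.75). The second was also lost without DLN/CD127-/lo replicate 2 (adjusted p = 0.064) or 3 (0.053). Igkv8-30 had 2193 CPM and Igkv6-32 1079 CPM in replicate 1, and both were at 0 in replicates 2 and 3 and in all DLN/naive and DLN/CD127-/lo libraries. Against 3 reads a library, the group was at least 360-fold higher than DLN/naive for Igkv8-30 (adjusted p = 6.1e-09) and at least 177-fold higher for Igkv6-32 (9.9e-06). These calls describe 1 library, since without it both groups were at 0. The 11 plasma cell genes summed to 1681, 519 and 216 CPM in the 3 libraries. Most of the sum in replicate 1 was Jchain, which joins IgM and IgA polymers, at 1388 CPM and 239 and 122 in the others. The other plasma cell genes were not of 1 pattern. Eaf2, Fkbp11 and Prdm1 were highest in replicate 1, at 51.6, 30.2 and 89.5 CPM. Derl3, Mzb1, Sdc1, Txndc5 and Xbp1 were highest in replicate 2, Irf4 in replicate 3, and Tnfrsf17 was at 0 in all 3. Mzb1 stood at 35.04, 52.01 and 19.7 CPM.

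Other V genes marked the other DLN/CD127hi libraries. Iglv2 had 71.1, 435 and 31.1 CPM in DLN/CD127hi and was at 0 in DLN/naive, so the groups did not overlap (at least 88.2-fold higher, adjusted p = 0.00045). Its call held in all 6 other settings and without each library. Iglv3 had 0, 0.788 and 192.8 CPM, and its call (adjusted p = 0.0033) was lost without replicate 3 (adjusted p = 0.60). Igkv12-46, with 19.5, 20.5 and 0 CPM, and Igkv6-15, with 0, 21.3 and 48.7, were called against DLN/naive libraries all at 0 (at least 6.56-fold and 11.5-fold higher, adjusted p = 0.018 and 0.027). The Igkv12-46 call was lost without DLN/naive replicate 1, 2 or 3 (adjusted p = 0.057 in each case) and the Igkv6-15 call without DLN/CD127hi replicate 3 (adjusted p = 0.071) or DLN/naive replicate 1, 2 or 3 (adjusted p = 0.088 to 0.095). The gene called lower, Igkv4-59, had 181.7 CPM in DLN/naive replicate 3 and 0 in the other DLN/naive and all DLN/CD127hi libraries (at least 21.6-fold lower, adjusted p = 0.031). Its call held in 2 of 6 fits with a library left out, and without DLN/naive replicate 3 both groups were at 0. Igkv12-46, Igkv6-15 and Igkv4-59 were each called in 4 of 6 other settings and Iglv3 in 5.

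Between DLN/CD127hi and DLN/CD127-/lo, 8 of the 100 genes were called, all higher, when 0.418% of all genes passed and 0.221% were higher. They were Igkc, Iglc2, Iglc1, Ighg2b, Igkv8-30, Igkv6-32, Iglv3 and Igkv12-46. In 6 of the 100 genes all DLN/CD127hi libraries lay above all DLN/CD127-/lo ones, against 2.26% of all genes. Iglc1 (4.03 ± 1.02, adjusted p = 0.032) was lost without DLN/CD127hi replicate 1 (3.38, adjusted p = 0.21) or DLN/CD127-/lo replicate 2 (3.6, adjusted p = 0.31), and Iglv3 (adjusted p = 0.0082) without DLN/CD127hi replicate 3 (adjusted p = 0.78) or DLN/CD127-/lo replicate 2 (adjusted p = 0.065). Igkv12-46 (adjusted p = 0.034) was lost without 4 of the 6 libraries, which were DLN/CD127hi replicate 1 and all 3 of DLN/CD127-/lo (adjusted p = 0.057 to 0.14). Iglc1 was called in 3 of 6 other settings, Igkv12-46 in 4, and Iglv3, Iglc2 and Ighg2b in 5. Of 16 B cell markers Blk and Ly6d were called higher, and of 11 plasma cell genes Jchain (5.09 ± 0.88).

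DLN/CD127-/lo differed from DLN/naive in 3 of the 100 genes, 2 higher and 1 lower, when 0.355% of all genes passed, 0.241% higher and 0.114% lower. The median of all genes was 0.58 in this comparison and 0.71 with RLE size factors, under which 60 of 76 calls in all genes were higher in place of 61 of 90. Ighd was higher by 2.41 ± 0.49 (adjusted p = 0.0018), with 1.43 (adjusted p = 0.46) without DLN/CD127-/lo replicate 2 and 4.17 without DLN/naive replicate 1, and was called in 3 of 6 other settings. Ighm was higher by 1.09 ± 0.29 (adjusted p = 0.049), a call lost without DLN/CD127-/lo replicate 1 (0.86, adjusted p = 0.23) or 2 (1.03, adjusted p = 0.14) or DLN/naive replicate 1 (0.82, adjusted p = 0.38) or 3 (1.08, adjusted p = 0.098). Igkv4-59 was lower, again through DLN/naive replicate 3 (at least 25.7-fold, adjusted p = 0.049), and was called in 3 of 6 other settings and not without any 1 of the DLN/CD127-/lo libraries (adjusted p = 0.10 to 0.20) or DLN/naive replicate 3, after which both groups were at 0. The Ighm call was made in 4 of 6 other settings (adjusted p up to 0.76). Igkc differed by −1.12 ± 0.39 and did not pass (adjusted p = 0.26). Of 16 B cell markers Ms4a1, Cd79b, Fcer2a, Cr2 and Cd24a were called higher in DLN/CD127-/lo and Ly6d lower, and of 11 plasma cell genes Mzb1 was called higher. All or most reads of 3 of these lay in 1 DLN/CD127-/lo library each. Fcer2a had 0, 44 and 0 reads there, Cd24a 1, 3 and 116, and Mzb1 0, 0 and 100. The part of these markers in the Ighd and Ighm differences was not tested. The 2 comparisons with DLN/naive share its 3 libraries.

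Whether the step from CD127-/lo to CD127hi differed between DLN and spleen was tested as an interaction. Of the 100 genes, Igkc was called (4.85 ± 0.57, adjusted p = 2.5e-11), when 0.118% of all genes passed and 0.071% were higher. Splenic Igkc had 149.7, 103 and 113 CPM in SP/CD127-/lo and 77.7, 119 and 15.6 in SP/CD127hi, so it was not higher in SP/CD127hi as a group. The interaction passed without each of the 12 libraries, at 3.13 without DLN/CD127hi replicate 1 and 5.66 without DLN/CD127-/lo replicate 2. Organ and sequencer coincide here and cannot be told apart, although each difference was taken within 1 organ.

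Ighm was higher in every tolerant than in every naive library of both CD45+CD4- cells and CD4+Foxp3- T cells, but did not pass the test in either. In CD45+CD4- cells none of the 100 genes was called between tolerant and naive mice by edgeR's quasi-likelihood test or by DESeq2, when 0.0355% of all genes passed, and 3 were called when only the compared libraries were fitted. At an unadjusted p under 0.05 there were 11. Ighm differed by 0.92 ± 0.28 (adjusted p = 0.75), Ighd by 0.47 (1) and Igkc by 0.69 ± 0.38 (1). In 12 of the 100 genes all tolerant libraries lay above all naive ones, against 3.75% of all genes. The B cell markers summed to 11837 ± 1085 against 8080 ± 1757 CPM, with 0 of 16 called. The 7 T cell markers summed to 720 ± 79.7 CPM (SD, n = 3) in tolerant against 1471 ± 624 in naive mice, with Cd28 called lower (−1.89 ± 0.41, adjusted p = 0.020), and Ikzf2 of the Treg list was also called lower (adjusted p = 0.00020). The 4 CD8 T and NK cell markers summed to 345 against 603 CPM and the 7 macrophage markers to 570 against 294, with none called. The part of these markers in the immunoglobulin levels was not tested. In CD4+Foxp3- T cells Ighm differed by 0.58 ± 0.28 (adjusted p = 0.69), and 2 lambda genes were called lower in tolerant mice, when 0.107% of all genes passed and 0.0907% were lower. Iglc2 had 0, 0 and 3.86 CPM against 37.1, 15.2 and 0 (−3.75 ± 0.78, adjusted p = 0.0044), and −8.66 without tolerant replicate 3. Iglc1 was at 0 in tolerant T cells and had reads in naive replicate 2 only, at 33.6 CPM (at least 15.2-fold lower, adjusted p = 0.00034, and adjusted p = 1 without that library). Both were called in 3 of 6 other settings. Of the 16 B cell markers 2 were called lower and 0 higher. These were Ms4a1 (−4.13 ± 0.81, adjusted p = 0.0017) and Ebf1, a B cell transcription factor (−5.23 ± 0.85, adjusted p = 2.3e-05). Ms4a1 had 108, 1 and 1 reads in naive against 2, 6 and 0 in tolerant T cells, so most of its reads lay in naive replicate 1. Ebf1 had 40, 144 and 0 reads against 4, 2 and 0. The part of these markers in the lambda calls was not tested.

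The difference between naive CD45+CD4- cells and naive CD4+Foxp3- T cells is given as a description, since the rule drew on these libraries. Of the 100 genes 24 were called higher, namely 7 constant genes, 15 kappa V genes and 2 lambda V genes, when 1.04% of all genes passed and 0.659% were higher. The log2 differences were 6.94 for Igkc, 7.05 for Ighd, 6.51 for Iglc2 and 2.69 for Ighm, so that Ighm differed least of the 4. In 32 of the 100 genes the CD45+CD4- libraries all lay above the T cell libraries, against 7.13% of all genes. The median over the 100 genes was 6.74, against 0 over all genes tested. Of the B cell receptor signalling list 13 of 16 genes were called higher, and of the B cell markers 15 of 16. In the list of V(D)J recombination and surrogate light chain genes it was 1 of 7, Vpreb3, while Rag1, Rag2 and Dntt were not called. Among class switch and germinal center genes it was 0 of 8.

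**Figure D3:**
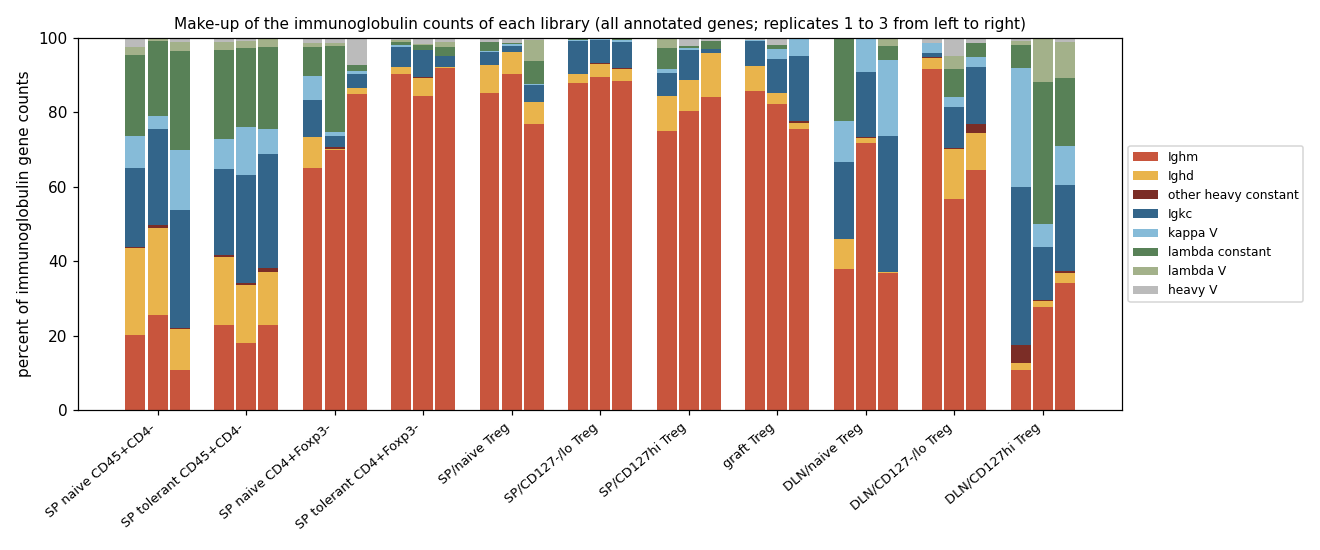
Make-up of the immunoglobulin reads of each library over all 229 annotated genes, in percent, with the 3 replicates of a group side by side. Stacked colours are Ighm, Ighd, other heavy constant genes, Igkc, kappa V, lambda constant, lambda V and heavy V genes. Ighm fills most of the bars of splenic CD4+ and graft libraries, and light chain genes fill most of those of CD45+CD4- cells and of DLN/CD127hi.

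V gene use was described for each library with at least 20 reads on the V genes of a locus, using the inverse Simpson number, which is the number of equally used genes that would give the same evenness. Intervals are exact binomial 95% intervals and cover counting error only. The 6 libraries of CD45+CD4- cells held 1235 to 10542 kappa V reads with an inverse Simpson number of 2.84 to 31.2. The low value belonged to replicate 2 of the naive mice, in which Igkv6-15 took 717 of 1235 reads (58.1%, interval 55.3% to 60.8%). Igkv12-46 led replicate 3 with 2566 of 9281 reads, whereas Igkv19-93 led replicate 1 with 8.84%. In tolerant mice the leading genes were Igkv14-111 (6.85%), Igkv1-117 (14.3%) and Igkv4-59 (13.1%), so each of the 6 libraries had another leading gene.

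Over these 6 libraries the kappa V genes with the most reads, not scaled by length, were Igkv12-46, Igkv1-117 and Igkv6-15, at 198, 126 and 96.0 CPM. Their single libraries varied widely. Igkv12-46 had 13.7, 0.652 and 826 CPM in naive and 18.5, 296 and 30.9 in tolerant mice, and Igkv1-117 31.2, 0.978 and 124 in naive and 54.4, 413 and 132 in tolerant mice. Heavy chain V genes gave only 74 to 947 reads a library, with Ighv1-26, Ighv3-6 and Ighv1-22 highest at 10.3, 9.24 and 9.05 CPM. Genes of the Ighv1 family, the largest, took 66.8% ± 18.4 (SD, n = 3) of heavy V reads in naive and 60.5% ± 7.46 in tolerant mice. Per 100 constant gene reads there were 0.421 to 5.39 heavy V reads, 13.5 to 50.8 kappa V reads and 3.90 to 10.1 lambda V reads. Relative to constant gene reads, heavy chain V genes thus had the fewest reads.

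Among lambda V genes Iglv1 led in CD45+CD4- cells, with 48.9% to 67.8% of 274 to 1641 reads a library. It had 152.5, 43.7 and 257 CPM in naive and 273, 244 and 347.5 in tolerant mice. By group mean Iglv3 followed, with 86.5, 37.8 and 138 CPM in naive and 76.0, 128 and 125 in tolerant mice. Iglv2, whose printed end differs little from that of Iglv1, had 7.83 to 99.4 CPM and lay above Iglv3 in tolerant replicate 1. Iglv1 and Iglv2 share long stretches, and 90.5% and 91.1% of their 75-base windows were found in no other annotated V gene. Over the 65 kappa V genes of the 100 this share had a median of 94.6% and a low of 40.5%, and it was 57.5% for Igkv4-59, 68.5% for Igkv3-5, 68.8% for Igkv1-110 and 69.1% for Igkv1-117, so their counts are less certain.

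In Tregs, kappa V reads ranged from 4 to 3553 a library, and inverse Simpson numbers from 1.06 to 13.4. Of 21 Treg libraries 16 had at least 20 kappa V reads, and in 10 of these a single gene took over 50% of them, as in 1 of the 6 libraries of CD45+CD4- cells. SP/CD127hi replicate 1 had 69 of 71 kappa V reads on Igkv6-15, and replicate 2 had 14 of 27 on Igkv2-109. Graft replicate 2 had 88 of 128 on Igkv4-91 (68.8%, interval 59.96% to 76.65%) with 37 on Igkv8-30, and graft replicate 3 had 100 of 169 on Igkv1-110. No 2 replicates of these groups shared a leading kappa gene.

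Heavy V reads also fell on few genes in single libraries of these groups. SP/CD127hi replicate 2 had 56 of 109 heavy V reads on Ighv6-4 and 39 on Ighv1-54, and replicate 3 had 39 of 48 on Ighv8-6. In graft replicate 2, Ighv8-2 and Ighv1-56 took 58 and 43 of 101. No lambda V read was found in 12 of 21 Treg libraries, among them all 3 of the graft and all 3 of SP/CD127-/lo, whereas SP/naive replicate 3 had 210 reads of Iglv1 and 157 of Iglv2 among 368.

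In DLN/naive, replicate 1 had 44 of 110 kappa V reads on Igkv3-5, replicate 2 had 103 of 114 on Igkv3-2 and replicate 3 had 293 of 406 on Igkv4-59. In DLN/CD127-/lo the leading genes were Igkv2-109 (43 of 72), Igkv10-94 (19 of 47) and Igkv19-93 (27 of 28). DLN/CD127hi replicate 1 had 3553 kappa V reads, within the range of CD45+CD4- cells, and Igkv8-30 took 2253 (63.4%, interval 61.8% to 65.0%) and Igkv6-32 another 1109 (31.2%).

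The other DLN/CD127hi libraries differed from it and from each other. Replicate 2 had 347 kappa V reads with an inverse Simpson number of 13.4, led by Igkv3-4 with 11.8%, and 552 of 652 lambda V reads on Iglv2. Replicate 3 had 75 of 243 kappa V reads on Igkv3-5 and 73 on Igkv8-24, with 186 of 216 lambda V reads on Iglv3 and 27 of 28 heavy V reads on Ighv7-3. Replicate 1 had 33 of 82 heavy V reads on Ighv1-22. Kappa took 56.7% ± 30.1 (SD, n = 3) of light chain constant reads in DLN/CD127hi, from 27.2% to 87.3%, so the 3 libraries had no common light chain ratio.

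**Figure D4:**
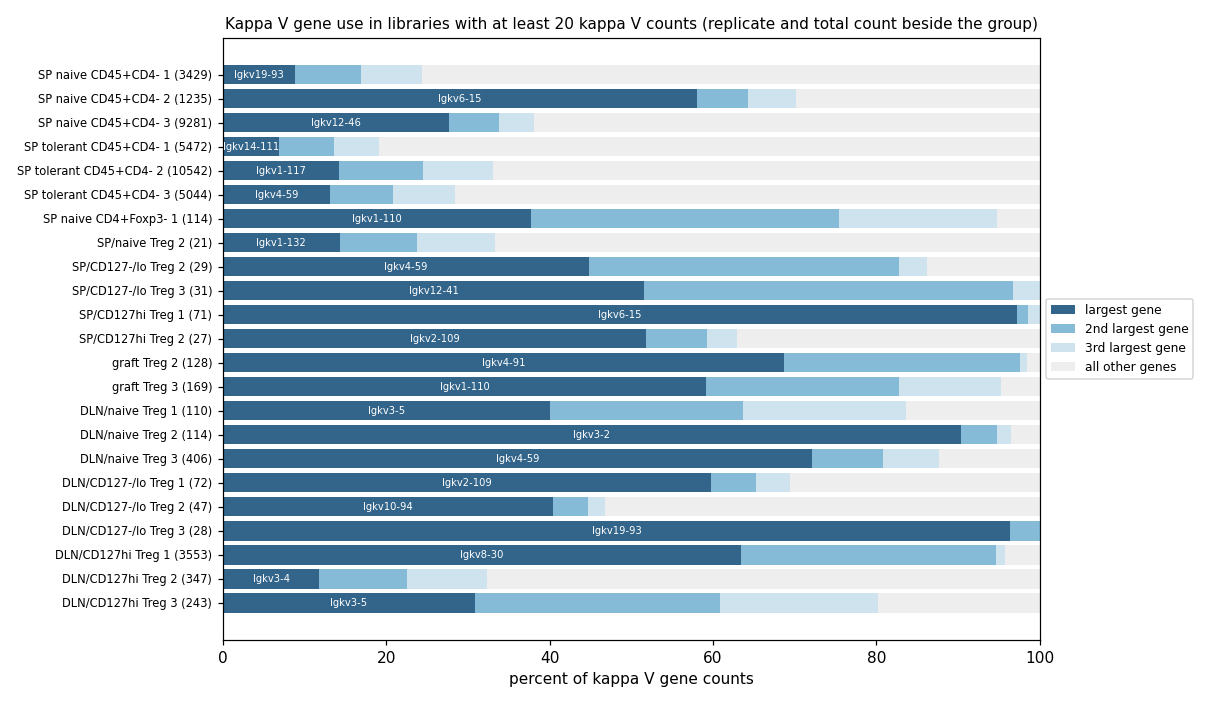
Share of kappa V reads taken by the leading, the second and the third gene and by all others, in percent, in each library with at least 20 such reads. The number beside each library is its kappa V read count and the name in the bar is the leading gene. Leading genes take 6.85% to 58.1% in CD45+CD4- cells, and 10 Treg libraries lie above 50%.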

How the data were processed

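RNA of sorted cells was amplified with SMART-Seq v4 and sequenced in pairs, DLN libraries on a MiSeq and all others on a NextSeq 500. Per the labels and methods, the authors trimmed reads with Trim Galore and aligned them with STAR to mm10 plus EGFP, and deposited whole-number counts per gene. The unstranded column was used, so overlapping antisense genes (Gm30211 at Igkc, 2010309G21Rik at Iglc1, Iglc3 and Iglv1) cannot be told apart. Gene types and positions came from GENCODE vM21 (GRCm38). No column of another sample was present (0 columns).

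The filter was 1 CPM or more in any 1 library, which left 25347 genes tested. edgeR 4.0.16's quasi-likelihood test was fitted in R 4.3.3 over all 33 libraries with 1 mean per group, TMM normalization and Benjamini-Hochberg adjustment over all genes, and a gene was called at an adjusted p under 0.05. Fold changes come from this fit. Alternatives were edgeR's likelihood ratio test, DESeq2 1.42.0, RLE size factors, no filter, the compared libraries alone, a replicate block and leaving out each library. Shares and V gene use were computed with pandas 2.3.3 and exact intervals with scipy 1.17.1. The fits were tested on simulated counts. A planned shorter B cell marker list is not reported here.

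The genes, marker lists and comparisons were chosen with earlier results of these data known. Named were all constant genes, in each comparison the called V genes with the largest changes, the V genes highest in CD45+CD4- cells and the leading V gene of each locus in SP/CD127hi, graft and DLN/CD127hi libraries. The remaining V genes were named after their values were seen. Replicate numbers did not pair libraries: in 0 of 15 comparisons did every same-numbered pair correlate above 0.1 (−0.105 to 0.108 over 10000 genes).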

Additional observations from a re-analysis of the deposited data

Results flagged for a closer look

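The difference of Igkc, the kappa constant gene, between CD127hi and CD127-/lo Tregs was larger in the DLN than in the spleen by 4.85 ± 0.57 (log2, edgeR's quasi-likelihood interaction test, adjusted p = 2.5e-11), and this test of the difference itself is what singled it out. Igkc was higher in DLN/CD127hi by 4.06 ± 0.43 in the DLN, with 4607, 620.2 and 546 CPM against 15.8, 201 and 130.0. In the spleen SP/CD127hi had 77.7, 119 and 15.6 CPM and SP/CD127-/lo 149.7, 103 and 113. The adjusted p was 4.3e-24 to 0.0050 over the 6 other settings, and at most 0.0032 when any of the 12 libraries was left out. The 16 B cell markers summed to 455 to 1199 CPM in DLN/CD127hi and 204 to 499 in DLN/CD127-/lo, and their part in the difference was not tested.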

How the results depend on the processing

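All counts here are of the 100 immunoglobulin genes. With the compared libraries alone in the fit, the calls were 3 for tolerant minus naive CD45+CD4- cells (0 in the fit reported), 6 for DLN/CD127hi minus DLN/naive, 5 for DLN/CD127hi minus DLN/CD127-/lo, 2 for the interaction, 1 for SP/naive Tregs minus T cells, and 0 for tolerant minus naive T cells, for all 3 comparisons within splenic Tregs, for all 3 graft comparisons and for DLN/CD127-/lo minus DLN/naive. The likelihood ratio test gave 0 for tolerant minus naive T cells, the 3 comparisons within splenic Tregs, graft minus SP/CD127-/lo, and SP/naive or SP/CD127-/lo Tregs minus T cells, 1 for graft minus SP/CD127hi, DLN/CD127-/lo minus DLN/naive and SP/CD127hi Tregs minus T cells, and 2 for the interaction. DESeq2 gave 12 for naive CD45+CD4- cells minus T cells, 0 for SP/CD127hi minus SP/naive, 3 for SP/CD127hi minus SP/CD127-/lo and for the interaction, 5 for graft minus SP/naive or SP/CD127hi, 9 for DLN/CD127hi minus DLN/naive and 2 for SP/naive Tregs minus T cells. With no filter the calls were 2 for SP/CD127hi minus SP/CD127-/lo, graft minus SP/CD127-/lo and the interaction, 5 for SP/CD127-/lo minus SP/naive and for graft minus SP/naive or SP/CD127hi, and 4 for SP/CD127hi Tregs minus T cells. RLE size factors gave 2 for graft minus SP/CD127-/lo and for the interaction, and over all genes 16 of 33 higher calls in place of 10 of 26 for graft minus SP/CD127hi. The replicate block, whose numbers do not pair the libraries, gave 2 for SP/CD127hi minus SP/CD127-/lo and graft minus SP/CD127-/lo, 4 for SP/CD127-/lo minus SP/naive and SP/CD127hi Tregs minus T cells, and 5 for graft minus SP/naive or SP/CD127hi. The cause of these shifts was not tested.

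Leaving out each library in turn gave 0 to 0 calls for tolerant minus naive CD45+CD4- cells, 15 to 25 for naive CD45+CD4- cells minus T cells, 1 to 2 for tolerant minus naive T cells, 0 to 2 for SP/CD127hi minus SP/naive, 0 to 3 for SP/CD127hi minus SP/CD127-/lo, 1 to 4 for SP/CD127-/lo minus SP/naive, 2 to 4 for graft minus SP/naive or SP/CD127hi, 0 to 2 for graft minus SP/CD127-/lo, 7 to 15 for DLN/CD127hi minus DLN/naive, 3 to 9 for DLN/CD127hi minus DLN/CD127-/lo, 1 to 4 for DLN/CD127-/lo minus DLN/naive and for the interaction, 1 to 5 for SP/naive Tregs minus T cells, and 2 to 4 for SP/CD127-/lo or SP/CD127hi Tregs minus T cells. Of single gene results 352 kept direction and side of the threshold and 109 no longer passed. Iglv1 in SP/naive Tregs minus T cells reversed to −1.89 without SP/naive replicate 3, and over all libraries left out it ranged from there to 8.70 (without naive T cell replicate 3). Under the other settings 352 kept both, 103 no longer passed and none reversed.

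The share of immunoglobulin reads in SP/CD127-/lo was 0.165% on TMM-scaled CPM. With counts pooled over libraries the inverse Simpson number of kappa V genes was 6.504 in SP/CD127-/lo, 4.31 in the graft, 3.83 in DLN/naive and 6.98 in DLN/CD127-/lo. The mean ratio of immunoglobulin to B cell marker level, with that of CD45+CD4- cells of the same treatment set to 1, was 71.4 and 33.03 in naive and tolerant CD4+Foxp3- T cells, 188 in SP/naive, 7.86 in SP/CD127-/lo, 19.8 in SP/CD127hi and 36.6 in DLN/naive when Cd79a, Cd79b and Ms4a1 alone stood for the 16 B cell markers, an alternative chosen after seeing the data (3.43, 4.88, 8.73, 11.2, 9.49 and 5.87 with all 16). With all 16 the ratio was 1.26 in naive T cells without replicate 3 and, without replicate 2, 4.74 in SP/CD127hi, 3.17 in DLN/naive and 4.12 in the graft (19.1 with it). These 3 genes together were at 0.392 CPM in naive T cell replicate 3 and 0.338 CPM in SP/naive replicate 2, and DLN/naive replicate 1, where they were at 0, was left out of the mean. Depth limits the description of V gene use, since 5 of 21 Treg libraries had fewer than 20 kappa V reads.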

Other observations

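Ighv1-47, a heavy chain V gene (GRCm38 chr12:114991108-114991580, minus strand), had no read in any of the 6 libraries of CD45+CD4- cells and led the heavy V reads of 3 of the 6 libraries of CD4+Foxp3- T cells. It took 89 of 93 heavy V reads in naive replicate 3 (95.7%, exact 95% interval 89.4% to 98.8%), 28 of 38 in tolerant replicate 2 and 27 of 35 in tolerant replicate 3. SP/CD127-/lo replicate 1 had another 7 reads and the graft none. The gene was picked out after its values were seen.

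Position along the kappa locus was summarised for CD45+CD4- cells. The 50 V genes nearest to Igkc took 44.1% to 70.5% of kappa V reads over the 6 libraries, out of 100 annotated genes. V genes on the strand of Igkc, 38 of the 100, took 25.2% to 47.5%.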
